A study of Mus musculus with 21 samples.

Results

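Mitochondrial ribosomal proteins were taken as the genes whose symbol begins with Mrpl or Mrps followed by a number. The rule matched 81 of the 14698 genes listed in any of the 4 expression tables, of which 78 are genes and 3 are pseudogenes (Mrpl27-ps, Mrpl48-ps and Mrpl23-ps1). All 4 tables held 75 of the 78 genes. By subunit, 26 belong to the small and 51 to the large subunit, with Mrps30 and Mrps18a counted in the large subunit because their proteins sit there. Mrps36, a part of the oxoglutarate dehydrogenase complex in spite of its symbol, was counted in neither. By class, 45 were counted as the counterpart of a bacterial protein and 31 as specific to mitochondria, while Mrpl55 and Mrps36 were left unclassed. Mrps18a and Mrps18b, relatives of a bacterial protein whose counterpart here is Mrps18c, were counted among the mitochondria-specific genes.

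The mitochondrial ribosome translates the few proteins encoded by mitochondrial DNA, all of them subunits of the respiratory chain and of ATP synthase. Its RNA comes from the mitochondrial genome, whereas its proteins are encoded in the nucleus, made in the cytosol and imported. It descends from a bacterial ribosome, has lost much of the bacterial RNA, and has gained many proteins that bacteria do not have and whose genes are expressed in nearly all cells, often under factors such as MYC, NRF1, GABP and YY1.

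The libraries came from Ba/F3 cells, a mouse line labelled as interleukin-3 dependent pro-B cells, made to express the activated kinase JAK2-V617F in all groups, controls included. Strand-specific mRNA libraries were sequenced for 7 groups of 3 libraries. In CHZ_treated, Ruxo_treated and DMSO_treated the cells were kept for 6 hours with 1 μM CHZ868 (a type II JAK2 inhibitor), 1 μM ruxolitinib (a type I inhibitor) or the solvent DMSO. In CHZ_wash and Ruxo_wash the inhibitor, at 1 μM, was present for 1 hour and washed away, and the cells were grown for 6 more hours without it; DMSO_wash_exp3 is the solvent group of CHZ_wash and DMSO_wash that of Ruxo_wash. The labels do not say that the 3 libraries of a group came from separate cultures, so p-values measure the spread between these libraries, which may be technical. CHZ_treated and DMSO_treated share a table, as do the groups of each washout experiment, but Ruxo_treated has a table of its own. The tables were normalized separately, so that levels were tested within a table and never between tables.

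The marker genes matched the label only in part. Of the pro-B and B lineage genes reported here, Cd79a and Cd79b were listed in the table of CHZ_treated and DMSO_treated, at a mean of 4.33 and 3.88 log2 CPM, and Vpreb1, Vpreb2, Vpreb3, Igll1, Ebf1, Pax5, Rag1, Dntt and Il7r were listed in none of the 4 tables. Cd79a and Cd79b summed to 29, 34 and 31 CPM in DMSO_treated and 40, 38 and 40 CPM in CHZ_treated. All 3 chains of the interleukin-3 receptor family were present, with Csf2rb the most abundant at 10.52 log2 CPM, and summed to 3186, 3154 and 3218 CPM in DMSO_treated and 2378, 2481 and 2681 CPM in CHZ_treated. Of 5 mast cell and basophil genes only Gata2 was listed, at 677, 699 and 715 CPM in DMSO_treated and 679, 702 and 740 CPM in CHZ_treated, and Cpa3, Ms4a2, Fcer1a and Mcpt8 were not. Of 4 erythroid genes Gata1, Klf1 and Hba-a1 were listed there and Hbb-bt was not. Hba-a1 was the most abundant of them, and they summed to 528, 570 and 564 CPM in DMSO_treated and to 701, 744 and 722 CPM in CHZ_treated. Ruxo_treated libraries 1 to 3 summed to 1077, 750 and 1102 CPM over the erythroid genes in their own table, to 45, 39 and 39 CPM over Cd79a and Cd79b and to 2726, 3254 and 2903 CPM over the interleukin-3 receptor chains, with Gata2 at 816, 901 and 899 CPM and Csf1r at 7, 5 and 11 CPM. Of 4 myeloid genes the table of CHZ_treated held Csf1r alone (7, 12 and 9 CPM in DMSO_treated, 3, 6 and 4 CPM in CHZ_treated, without Mpo, Elane and Itgam), the 4 T cell genes (Cd3e, Cd3d, Cd4 and Cd8a) were in no table, and of the fibroblast genes Col1a1 appeared at 0.43 log2 CPM in the table of Ruxo_wash while Col1a2 appeared in none. The cells are called Ba/F3 here without a lineage. In the washouts, the erythroid genes summed to 401, 326 and 336 CPM in CHZ_wash and 267, 322 and 240 CPM in DMSO_wash_exp3, and, with Hbb-bt also listed, to 3279, 3342 and 3373 CPM in Ruxo_wash and 3832, 3809 and 3863 CPM in DMSO_wash. The interleukin-3 receptor chains summed to 1645, 1603 and 1619 CPM in CHZ_wash and 1761, 1652 and 1823 CPM in DMSO_wash_exp3, and to 271, 254 and 281 CPM in Ruxo_wash and 331, 320 and 340 CPM in DMSO_wash. Cd79a and Cd79b summed to 28, 28 and 27 CPM in CHZ_wash and 31, 33 and 26 CPM in DMSO_wash_exp3, and to 27, 26 and 25 CPM in Ruxo_wash and 21, 22 and 23 CPM in DMSO_wash. For Gata2 the groups of each washout overlapped. All these sums are on the deposited scale. The part of the marker levels in the results on ribosomal proteins was not tested. In bulk RNA, fewer cells of a kind and less RNA per cell cannot be told apart.

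A pair of libraries stood apart from their groups. Between replicates, the variance over genes in units of sampling noise was 11.2 and 11 for the pairs that held Ruxo_treated replicate 2 and 3.29 for the pair without it. The pairs that held DMSO_wash_exp3 replicate 3 reached 7.79 and 12.5, against 3.62 without it. CHZ_treated was also wider than its control, at 4.84, 6.91 and 4.2 for its pairs against 2.43, 2.4 and 2.31 in DMSO_treated. Transcripts of the mitochondrial genome took 1.70, 3.53 and 1.72% of the Ruxo_treated libraries 1 to 3, and 2.84, 2.27 and 5.33% of the DMSO_wash_exp3 libraries. In both cases the library that stood apart held the highest share. The share was 1.42, 1.42 and 1.36% in DMSO_treated and 4.97, 4.93 and 6.37% in CHZ_treated, groups that did not overlap. Over 76 mitochondrial ribosomal protein genes, the deviation of Ruxo_treated replicate 2 from its fellow replicates had a Pearson r of 0.57 with the effect of CHZ868 at 6 hours (0.48 over 11624 genes), and the deviation of DMSO_wash_exp3 replicate 3 had an r of 0.61 over 75 of them (0.44 over 11175 genes). Over the same genes r was -0.52 and -0.29 for Ruxo_treated replicates 1 and 3, and -0.39 and -0.47 for DMSO_wash_exp3 replicates 1 and 2. Each deviation is taken from the fellow replicates, so the values within a group are tied to each other. These are correlations across genes, which are not independent replicates, and the points within each share their libraries. Values without 1 of these libraries are given below for some of the genes and lists.

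Per kilobase of transcript, the median of the ribosomal protein genes lay above that of all genes. In DMSO_treated it was 4.35 log2 CPM per kilobase, against 3.86 over 11166 genes with a known length. Without division by length the order was the reverse. Their median was then 5.05, 5.06 and 5.03 log2 CPM in DMSO_treated libraries 1 to 3, against 5.27 for the group means of the 11166 genes. Mrpl24, a protein near the exit of the peptide tunnel, was highest at 6.19 ± 0.05 log2 CPM per kilobase (SD, n = 3), and Mrpl17 was lowest at 1.88 ± 0.03, the latter divided by a principal transcript of 7300 bases. In DMSO_wash_exp3 the median was 4.69 (3.81 over all genes), from Mrps6 at 2.22 ± 0.26 to Mrpl13 at 6.32 ± 0.11. In DMSO_wash the median was 5.52 (3.01 over all genes), from Mrpl48 at 1.03 ± 0.36 to Mrpl52 at 9.31 ± 0.18. These extremes were divided by transcripts of 4285 and 418 bases. The values of DMSO_wash did not resolve to whole reads, and whether length already entered them is not known here. Its levels per kilobase are therefore uncertain. Cytosolic and mitochondrial ribosomal proteins both took a larger part of the DMSO_wash and Ruxo_wash table than of the others, and levels set side by side across tables carry that difference.

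On the deposited scale, the 76 genes measured in the CHZ868 table summed to 2609, 2631 and 2579 CPM in DMSO_treated (mean 2606 ± 26.1, SD, n = 3) and 2901, 2952 and 2832 CPM in CHZ_treated (mean 2895 ± 60.2). The groups did not overlap, but neither did the sums over all genes, which were 953239, 952269 and 948114 CPM in DMSO_treated and 1061057, 1047262 and 1062010 CPM in CHZ_treated. Rescaled to each library's own sum, the ribosomal protein genes took 2737, 2763 and 2720 CPM in DMSO_treated and 2734, 2819 and 2667 CPM in CHZ_treated, with overlap. With the mitochondrial transcripts also left out of that sum, the values in CPM were 2776, 2803 and 2757 in DMSO_treated and 2877, 2965 and 2849 in CHZ_treated, without overlap. Whether the groups overlapped thus depended on the scaling. On the deposited scale, over the genes that each table holds, the sum was 2627, 2500 and 2617 CPM in Ruxo_treated, 3081, 3372 and 3263 in CHZ_wash, 3264, 3329 and 3142 in DMSO_wash_exp3, 6370, 6415 and 6334 in Ruxo_wash and 6461, 6341 and 6230 in DMSO_wash. The tables of Ruxo_treated, CHZ_wash and Ruxo_wash hold 76, 76 and 78 of the genes, and that of CHZ_wash has Mrps6 but not Mrps18c. Within each washout table the sums of the inhibitor and DMSO groups overlapped.

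With CHZ868 at 6 hours, mitochondrial ribosomal protein genes changed in both directions. The share that passed, 50%, was close to that of all genes. The small subunit protein gene Mrps15 and the large subunit genes Mrpl41, Mrpl40 and Mrpl42 rose most, each by about 1 log2 unit or more, while Mrpl57 and Mrps18a fell most. Of the 76 genes tested 38 passed, 13 lower and 25 higher, against 53.2% of all 11670 genes, which fell in 26.4% and rose in 26.8% (limma-trend with Benjamini-Hochberg adjustment, threshold of 0.05). As shares of the ribosomal protein genes, 17.1% fell and 32.9% rose. Their median log2 fold change was 0.07 against -0.01 over all genes, and the quartiles were -0.26 and 0.43 against -0.37 and 0.31. The count was 43 at an unadjusted p under 0.05, next to 6810 of all genes. Changes ran from -1.10 to 1.29 among the ribosomal protein genes, and 18 of the 76 (23.7%) exceeded 0.5 in size, compared with 32.8% of all genes. A set of 29 (8 lower and 21 higher) passed in all 16 alternative settings. The calls that did not were Mrps26, lost in 8 of them, Mrpl10 in 7, Mrpl44 in 6, Mrpl22 in 5, Mrpl16 and Mrpl35 in 3, Mrpl13 in 2 and Mrpl49 and Mrps23 in 1. Quantile normalization gave 10 lower and 29 higher, next to 2935 lower and 3175 higher of all genes.

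**Figure D1:**
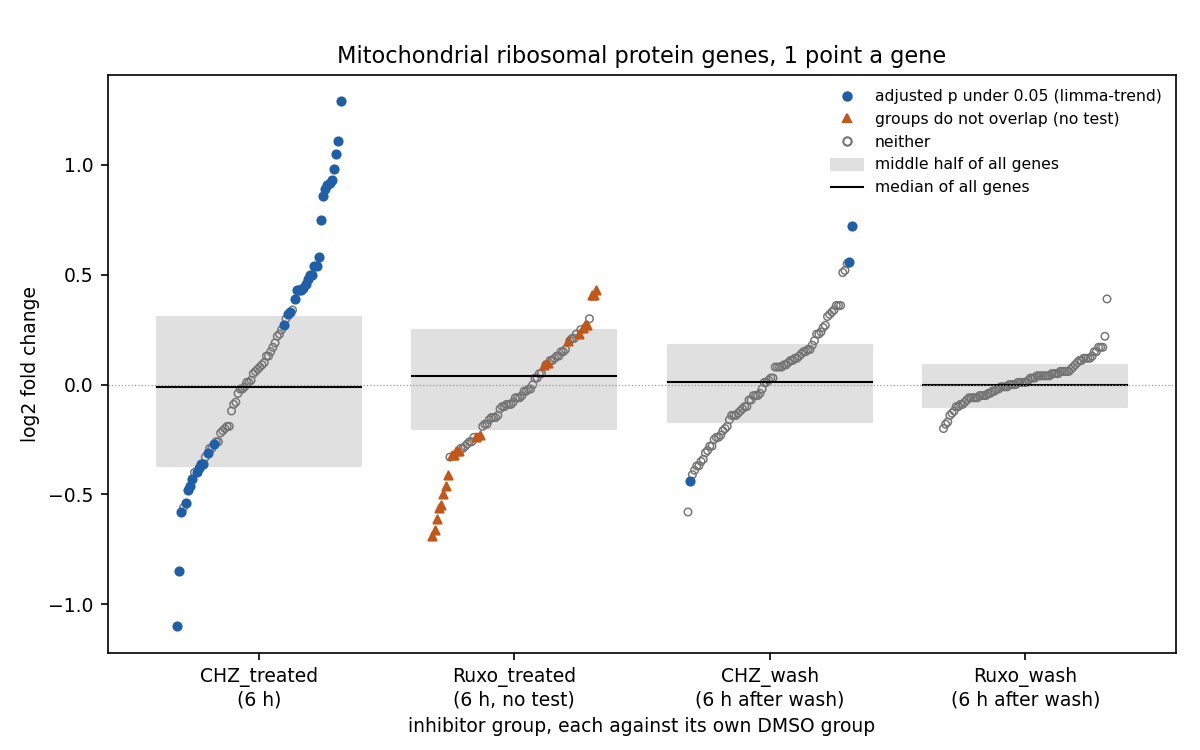
Log2 fold change of each mitochondrial ribosomal protein gene (1 point per gene) in each comparison, filled blue where limma-trend passed and orange where untested groups did not overlap, over a band and a line for the quartiles and the median of all genes. In CHZ_treated against DMSO_treated 38 of 76 passed, against 53.2% of all genes, while in Ruxo_wash against DMSO_wash all 78 stayed between -0.20 and 0.39.

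The genes classed as mitochondria-specific, Mrps18a and Mrps18b among them, had the higher median. Of 30 mitochondria-specific genes 15 rose and 6 fell, with a median of 0.31, and of 44 with a bacterial counterpart 9 rose and 7 fell, with a median of 0.00. By subunit, 19 rose and 10 fell of 50 in the large subunit (median 0.09), and 6 rose and 3 fell of 25 in the small subunit (median 0.06). These are counts beside the shares of all genes given above, and the difference between the classes was not tested. Of the genes left out of the subunits or classes, Mrps36 had a log2 fold change of 0.17 (adjusted p = 0.43 by limma-trend with Benjamini-Hochberg adjustment) and Mrpl55 rose by 0.92.

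Among the core proteins kept from bacteria, the lower side held Mrpl20, Mrpl12 and Mrpl19. Mrpl20 (chr4:155802878-155809975, + strand), whose bacterial counterpart binds ribosomal RNA early in assembly of the large subunit, stood at 4.13, 4.44 and 4.63 log2 CPM in CHZ_treated libraries 1 to 3 and 4.89, 5.00 and 5.06 in DMSO_treated. All 3 CHZ_treated libraries were below all 3 DMSO_treated libraries. Its log2 fold change was -0.58 (SE 0.14, fold 0.667, adjusted p = 0.00263 by limma-trend with Benjamini-Hochberg adjustment). Mrpl12 (chr11:120484613-120489065, + strand), the stalk protein where translation factors dock, was at 4.51, 4.87 and 4.64 log2 CPM in CHZ_treated and 5.38, 5.22 and 5.04 in DMSO_treated. The groups again stood apart. It fell by 0.54 on the log2 scale (SE 0.13, adjusted p = 0.00267 in limma-trend with Benjamini-Hochberg adjustment). Mrpl19 (chr6:81957851-81965958, - strand), at the interface of the subunits, was at 5.31, 5.01 and 5.10 log2 CPM with CHZ868 and 5.54, 5.66 and 5.60 with DMSO. No library of either group reached into the range of the other, and it fell by 0.46 (SE 0.11, adjusted p = 0.00172 by limma-trend with Benjamini-Hochberg adjustment). Mrpl12 has a near copy elsewhere in the genome (Gm15770, 94.0% identical over 597 bases) and Mrpl19 overlaps Gcfc2 on the other strand, so that reads of both are uncertain where counting did not use strand or unique placement.

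Other core genes lay on both sides. Mrpl47 fell by 0.43, Mrpl9 by 0.40, Mrpl16 by 0.36 and Mrpl10, the base of the stalk, by 0.27. Mrpl3 (chr9:105053239-105079888, + strand), which reaches toward the catalytic centre, was at 5.97, 5.89 and 5.85 log2 CPM in CHZ_treated and 6.24, 6.05 and 5.98 in DMSO_treated. The ranges did not overlap, yet the log2 fold change of -0.19 (SE 0.09) had an adjusted p of 0.0886 in limma-trend with Benjamini-Hochberg adjustment and did not pass. Mrps12 (chr7:28739641-28741820, - strand), a protein of the decoding centre, was at 3.22, 3.93 and 4.04 log2 CPM against 3.61, 3.68 and 3.68. The CHZ_treated libraries spanned the DMSO_treated ones, with a log2 fold change of 0.07 (SE 0.21, adjusted p = 0.788 by limma-trend with Benjamini-Hochberg adjustment). Upward, Mrpl23 rose by 0.75, Mrpl18 and Mrpl4 by 0.50, Mrpl35 by 0.46, Mrpl1 by 0.44, Mrpl22 by 0.43 and Mrpl13 by 0.27. Near copies exist for Mrpl23 (Mrpl23-ps1), Mrpl18 (Gm13675), Mrpl22 (Gm6997) and Mrpl47 (Gm6261), whose values are uncertain to that extent. Mrpl22 was the only gene of the 38 whose groups overlapped (named after its values were seen), with 4.63, 4.42 and 4.10 log2 CPM in CHZ_treated and 3.96, 3.77 and 4.13 in DMSO_treated.

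Mrps15, the counterpart of a bacterial protein that binds the small subunit RNA early and helps to bridge the subunits, had the largest rise. Mrps15 (chr4:126046925-126055532, + strand) was at 6.49, 6.38 and 6.38 log2 CPM in CHZ_treated and 5.14, 5.19 and 5.06 in DMSO_treated. The replicates of each group lay close together and the groups far apart. The log2 fold change was 1.29 (SE 0.09, fold 2.44, adjusted p = 1.14e-08 by limma-trend with Benjamini-Hochberg adjustment). In the small subunit, Mrps21 rose by 0.93 and, among those specific to mitochondria, Mrps33 by 0.91, Mrps22 by 0.89, Mrps31 by 0.86 and Mrps35 by 0.54. Mrps21 and Mrps33 have near copies (Gm6181, 97.3% identical over 264 bases, and Gm5776, 99.7% over 321 bases) and are uncertain to that extent. Downward there were Mrps23, which fell by 0.38, Mrps26, which fell by 0.31, and Mrps18b. Other core small subunit genes stayed short of the threshold, among them Mrps14 (-0.29) and Mrps16 (-0.33), with adjusted p-values of 0.161 and 0.0758 in limma-trend with Benjamini-Hochberg adjustment.

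The 3 genes descended from the bacterial small subunit protein S18 differed in their values. Mrps18a (chr17:46110986-46128910, + strand), whose protein sits in the large subunit, was at 3.51, 3.93 and 4.56 log2 CPM in CHZ_treated and 4.85, 4.81 and 4.91 in DMSO_treated. The CHZ_treated libraries spread widely but all lay below DMSO_treated, and the gene fell by 0.85 (SE 0.20, fold 0.553, adjusted p = 0.00242 by limma-trend with Benjamini-Hochberg adjustment). Mrps18b (chr17:35910379-35916389, - strand) was at 4.59, 4.76 and 4.59 against 5.21, 5.22 and 4.97 log2 CPM. It fell without overlap, by 0.48 (SE 0.12, adjusted p = 0.00333 by limma-trend with Benjamini-Hochberg adjustment). Mrps18c (chr5:100798627-100804471, + strand), the one counted as the bacterial counterpart, was at 2.29, 2.43 and 1.30 against 1.73, 1.90 and 1.81 log2 CPM. The groups overlapped, with CHZ_treated replicate 3 the lowest of the libraries, and the log2 fold change of 0.19 (SE 0.34) did not pass (adjusted p = 0.655 by limma-trend with Benjamini-Hochberg adjustment). Whether the 3 paralogs differ from each other was not tested. Mrps18b and Mrps18c have near copies (Gm13552, 99.8% identical over 417 bases, and Gm15946, 94.6% over 423 bases) and Mrps18a overlaps Rsph9 on the other strand, so their values are uncertain.

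Among large subunit proteins specific to mitochondria, Mrpl57 fell most and Mrpl41, Mrpl40 and Mrpl42 rose most. Mrpl57 (chr14:57826234-57829296, + strand), a small protein with no bacterial relative, was at 3.61, 3.81 and 2.87 log2 CPM in CHZ_treated and 4.67, 4.60 and 4.32 in DMSO_treated. CHZ_treated replicate 3 was lowest, and the groups did not overlap. Its log2 fold change was -1.10 (SE 0.22, fold 0.466, adjusted p = 0.000554 by limma-trend with Benjamini-Hochberg adjustment). Mrpl41 (chr2:24974117-24975098, - strand) was at 4.01, 4.25 and 4.05 log2 CPM against 3.00, 3.14 and 2.83. The groups were clearly separate, and it rose by 1.11 (SE 0.18, fold 2.16, adjusted p = 0.000107 by limma-trend with Benjamini-Hochberg adjustment). Mrpl40 (chr16:18872018-18876862, - strand), a protein of the central protuberance, was at 5.12, 5.25 and 5.22 log2 CPM against 4.01, 4.06 and 4.37. It rose by 1.05 without overlap (SE 0.13, fold 2.07, adjusted p = 9.17e-06 by limma-trend with Benjamini-Hochberg adjustment). Mrpl42 (chr10:95480805-95501940, - strand) was at 6.47, 6.04 and 5.80 log2 CPM against 4.98, 5.27 and 5.12. The lowest CHZ_treated library was above the highest DMSO_treated library, and the rise was 0.98 (SE 0.14, fold 1.98, adjusted p = 2.99e-05 by limma-trend with Benjamini-Hochberg adjustment). Mrpl41 and Mrpl42 have near copies (Gm6434, 97.8% identical over 372 bases, and Gm6419, 96.3% over 429 bases) and are uncertain to that extent. Mrpl40 overlaps Gm28539 on the other strand and is uncertain as well.

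Other mitochondria-specific large subunit genes rose by smaller amounts. Mrpl39 rose by 0.58, Mrps30 by 0.54, Mrpl43 by 0.48, Mrpl38 and Mrpl37 by 0.43, Mrpl45 (which anchors the ribosome at the inner membrane) by 0.39, Mrpl49 by 0.33 and Mrpl48 by 0.32. Mrpl58 (chr11:115403752-115412674, + strand), the peptidyl-tRNA hydrolase that frees stalled ribosomes, was at 4.03, 3.86 and 3.95 log2 CPM in CHZ_treated and 4.13, 3.85 and 3.98 in DMSO_treated. The groups overlapped (log2 fold change -0.04, SE 0.16, adjusted p = 0.858 by limma-trend with Benjamini-Hochberg adjustment). Mrpl44 (chr1:79776018-79781445, + strand), a protein with a ribonuclease III fold, was at 4.27, 4.31 and 4.12 log2 CPM against 4.56, 4.76 and 4.47. The groups did not overlap and it fell by 0.36 (SE 0.14, adjusted p = 0.0361 by limma-trend with Benjamini-Hochberg adjustment). That call was lost in 6 of the 16 alternatives, with adjusted p-values from 0.0271 to 0.18 over all of them: 0.0804 without CHZ_treated replicate 3, 0.0754 without DMSO_treated replicate 1 and 0.18 without DMSO_treated replicate 2. Mrpl44 overlaps Wdfy1 and Mrpl58 overlaps Ict1os, which makes their values uncertain. The pseudogene Mrpl27-ps had a log2 fold change of -0.06 (adjusted p = 0.842 by limma-trend with Benjamini-Hochberg adjustment).

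**Figure D2:**
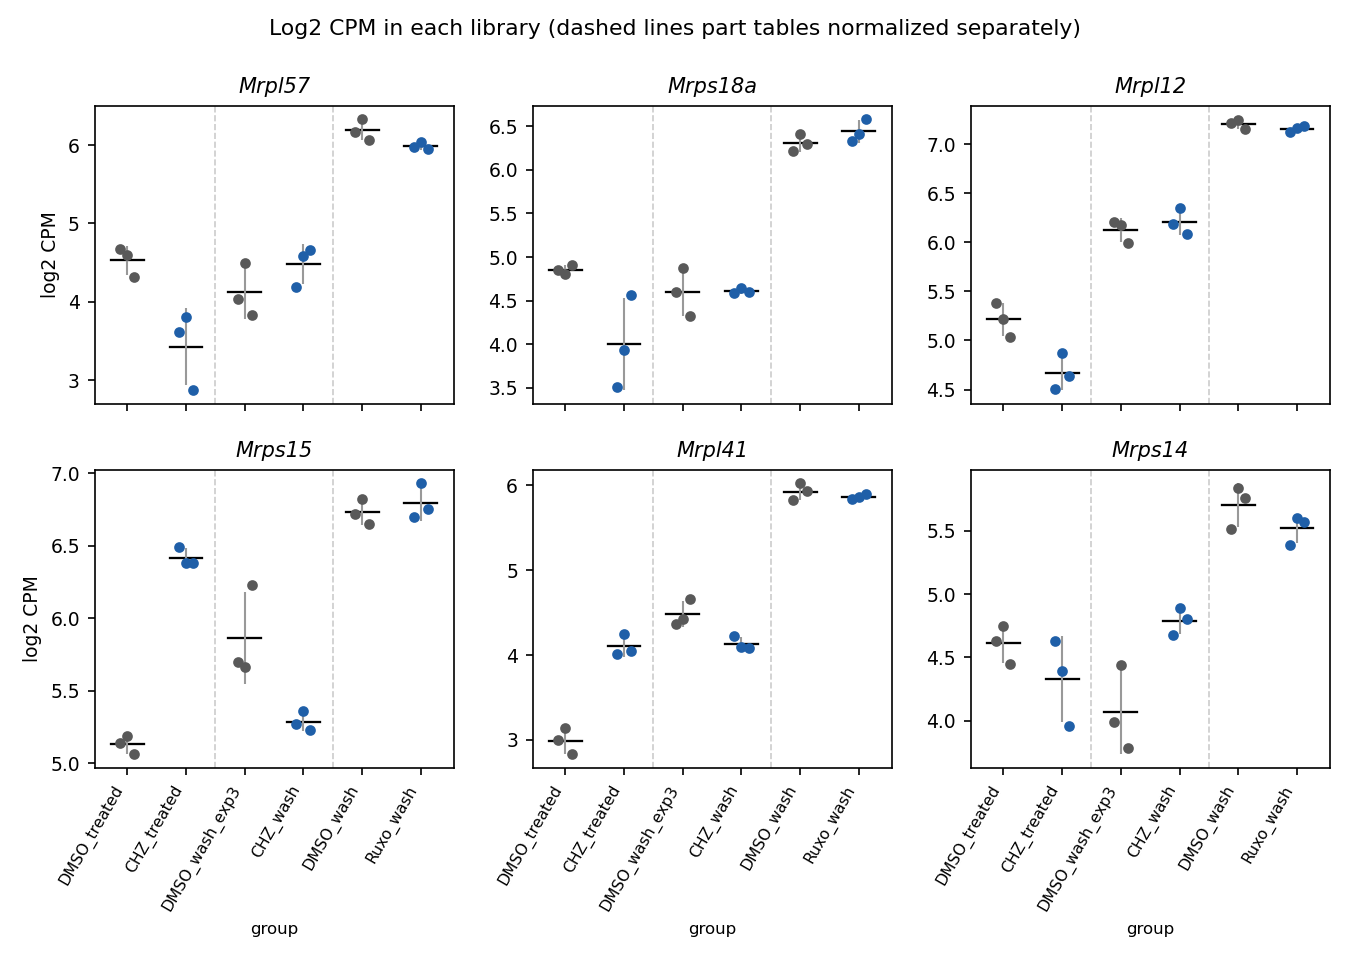
Log2 CPM of Mrpl57, Mrps18a, Mrpl12, Mrps15, Mrpl41 and Mrps14 in each library (points) of the groups that share a table with their own DMSO group, with the mean (horizontal line) and SD (vertical line, n = 3). Mrps15 lies at 6.38 to 6.49 in CHZ_treated and 5.06 to 5.19 in DMSO_treated, and Mrpl57 at 2.87 to 3.81 against 4.32 to 4.67.

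Ruxolitinib at 6 hours was set against the same DMSO_treated libraries as CHZ868, so that both comparisons share their controls and only each one's own values are given. Because Ruxo_treated stands in another table, the median over the 11624 genes held by both tables was first taken off each library, and no test was run. The genes that lay lowest relative to DMSO_treated were Mrpl57, Mrpl36, Mrpl20 and Mrpl19, and those that lay highest were Mrps15, Mrpl46 and Mrpl39. The first places of Mrpl57 and Mrps15 depended on Ruxo_treated replicate 2, without which they were at -0.37 and 0.20. With any 1 library left out, Mrpl36, Mrpl20 and Mrpl19 stayed at -0.53 or lower and Mrpl46 and Mrpl39 at 0.32 or higher. Of 76 ribosomal protein genes 24 had groups that did not overlap, 14 lower and 10 higher (31.6%), against 44.6% of all genes, of which 20.1% were lower and 24.6% higher. Their median difference was -0.07, against 0.04 over all genes. With a bacterial counterpart, 12 were lower and 3 higher of 44 (median -0.14), and of the 30 mitochondria-specific genes 2 were lower and 7 higher (median 0.05). In the small subunit 5 were lower and 3 higher of 25 (median -0.06), and in the large subunit 9 and 7 of 50 (median -0.09). The count of genes without overlap was 37 without Ruxo_treated replicate 1 and 32 without replicate 2, the library that stood apart, while it was 6306 and 6654 of all genes. Without replicate 2 the median was -0.01, against 0.03 over all genes. By class it was then -0.01 with a bacterial counterpart (15 lower and 5 higher) and 0.02 for mitochondria-specific genes (3 lower and 9 higher), and by subunit 0.02 in the small (5 lower and 6 higher) and -0.03 in the large one (13 lower and 8 higher). With fewer libraries in a group, more genes do not overlap by construction.

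Relative to the library median, Mrpl57 was at -1.0, -2.06 and -1.18 log2 CPM in Ruxo_treated libraries 1 to 3 and at -0.57, -0.65 and -0.93 in DMSO_treated. Replicate 2 was far below its fellows, and the difference was -0.69, or -0.37 without that library. Mrpl36 (chr13:73328513-73332178, + strand), the smallest of the core large subunit proteins in bacteria, was at -1.23, -1.47 and -1.04 against -0.59, -0.64 and -0.52. The groups were separate by a wide margin, at a difference of -0.66 (with CHZ868, -0.09). Mrpl20 was at -0.84, -1.01 and -0.78 against -0.35, -0.25 and -0.19, a difference of -0.61, and Mrpl19 at -0.11, -0.27 and -0.23 against 0.30, 0.41 and 0.36, a difference of -0.56. For both, all 3 libraries with ruxolitinib were lower. The stalk gene Mrpl12 was at -0.25, -0.95 and -0.56 against 0.13, -0.03 and -0.21, a difference of -0.55, or -0.37 without replicate 2, and Mrpl3 was at 0.61, 0.40 and 0.60 against 0.99, 0.80 and 0.74, a difference of -0.30. Neither overlapped. Further down without overlap were Mrps14 (-0.50), Mrps18b (-0.46), Mrps28 (-0.41), Mrpl34 and Mrpl47 (-0.32 each), Mrps16 (-0.30), Mrpl17 (-0.24) and Mrps17 (-0.23). Without replicate 2, Mrps14 was at -0.21, Mrps16 at -0.18 and Mrps17 at -0.11, still without overlap. Mrpl36 overlaps Ndufs6 on the other strand and is uncertain.

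On the higher side, Mrps15 was at 0.02, 0.78 and 0.14 relative to the library median in Ruxo_treated and at -0.11, -0.06 and -0.19 in DMSO_treated. Replicate 2 set much of the difference of 0.43, which was 0.20 without it. Mrpl46 (chr7:78775236-78783531, - strand), a protein of the central protuberance, was at -0.48, -0.45 and -0.53 against -0.75, -0.86 and -1.08. Its replicates lay close together, and the difference was 0.41. Mrpl39 (chr16:84717576-84735742, - strand) was at 0.37, 0.45 and 0.24 against -0.15, 0.01 and -0.02, also a difference of 0.41 without overlap. Mrpl4 and Mrpl45 were higher by 0.27, Mrps35 by 0.26, Mrpl49 by 0.23, Mrps30 by 0.20, Mrpl24 by 0.10 and Mrps25 by 0.09. Mrpl46 overlaps Mrps11, itself a ribosomal protein gene, on the other strand.

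Side by side, the genes that moved most with CHZ868 had these values with ruxolitinib. Both values of a gene rest on the same DMSO_treated libraries, and the genes were picked for their CHZ868 values. A like sign or size is thus partly built in, and nothing is concluded from it. Mrps15 was at 1.29 with CHZ868 and 0.43 with ruxolitinib, Mrpl41 at 1.11 and 0.30, Mrpl40 at 1.05 and 0.23, and Mrpl42 at 0.98 and 0.21. Of these 4, the groups overlapped for ruxolitinib in all but Mrps15. In Ruxo_treated replicate 2, the library that stood apart, Mrpl41 was at -1.37 relative to the library median, against -2.22 and -2.29 in its fellows and -2.25, -2.11 and -2.42 in DMSO_treated. Without replicate 2 the differences with ruxolitinib were 0.20 for Mrps15, 0.01 for Mrpl41, 0.08 for Mrpl40 and 0.07 for Mrpl42. Mrpl57 was at -1.10 and -0.69, Mrps18a at -0.85 and -0.11, Mrpl20 at -0.58 and -0.61, Mrpl12 at -0.54 and -0.55, Mrps18b at -0.48 and -0.46 and Mrpl19 at -0.46 and -0.56, the first value of each for CHZ868. Of these, Mrps18a alone overlapped with ruxolitinib. For Mrps18a replicate 2 was the lowest Ruxo_treated library, at 4.62 log2 CPM on the deposited scale against 4.90 and 4.78 in its fellows. Its difference is smaller in size without that library, as are those of Mrpl57 and Mrpl12 given above. Among the role genes not yet given, Mrpl44 was at 0.13, Mrpl58 at -0.24, Mrps12 at -0.06 and Mrps18c at 0.12 with ruxolitinib, all with overlap (0.23, -0.23, 0.06 and 0.04 without replicate 2, where the groups of Mrpl44 no longer overlapped). The difference between the inhibitors was not tested, since their tables were normalized separately.

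After CHZ868 had been washed out, few ribosomal protein genes differed from DMSO. Mrps14 and Mrps16, both core proteins of the small subunit, were higher and Mrpl38, a central protuberance protein, was lower. They were 3 of 76 tested, against 4.02% of all 11355 genes (2.07% lower and 1.96% higher), in limma-trend with Benjamini-Hochberg adjustment. The count was 16 at an unadjusted p under 0.05, next to 2767 of all genes. The median log2 fold change was 0.03, against 0.01 over all genes. By class, the median was 0.09 over 44 genes with a bacterial counterpart and -0.13 over 30 specific to mitochondria, and by subunit 0.14 in the small and -0.00 in the large one. Without DMSO_wash_exp3 replicate 3, the library that stood apart, the median was -0.03 over the ribosomal protein genes, 0.04 and -0.12 by class, and 0.07 and -0.06 by subunit, in the same order.

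Mrps14 (chr1:160195215-160202170, + strand) was at 4.68, 4.89 and 4.80 log2 CPM in CHZ_wash and 3.99, 4.44 and 3.78 in DMSO_wash_exp3. The groups did not overlap, and DMSO_wash_exp3 replicate 3 was lowest. Mrps16 (chr14:20389304-20393634, - strand) was at 5.14, 5.23 and 5.24 against 4.68, 4.81 and 4.44. The same library was lowest here, and the groups stood apart. The rises were 0.72 (SE 0.17, fold 1.65) for Mrps14 and 0.56 (SE 0.13, fold 1.47) for Mrps16, with adjusted p-values of 0.0458 and 0.0422 in limma-trend with Benjamini-Hochberg adjustment. Mrpl38 (chr11:116131817-116138868, - strand) was at 5.72, 5.86 and 5.95 log2 CPM against 6.30, 6.20 and 6.33. It fell by 0.44 without overlap (SE 0.10, fold 0.739, adjusted p = 0.0414 by limma-trend with Benjamini-Hochberg adjustment). Mrps15 was at 5.27, 5.36 and 5.23 against 5.70, 5.66 and 6.23, with DMSO_wash_exp3 replicate 3 the highest. Its log2 fold change of -0.58 (SE 0.15) did not pass, with an adjusted p of 0.0532 in limma-trend with Benjamini-Hochberg adjustment. Without DMSO_wash_exp3 replicate 3 the log2 fold changes were 0.57 for Mrps14, 0.46 for Mrps16, -0.41 for Mrpl38 and -0.40 for Mrps15, and all 4 passed. Mrps14 and Mrps16 have near copies (Gm17764, 93.8% identical over 389 bases, and Gm9173, 96.3% over 402 bases) and are uncertain to that extent.

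Genes described with CHZ868 present had these values after its washout. Mrpl41 was at 4.23, 4.09 and 4.08 log2 CPM in CHZ_wash and 4.36, 4.43 and 4.66 in DMSO_wash_exp3, Mrpl40 at 4.95, 5.31 and 4.93 against 5.35, 5.17 and 5.61, and Mrpl42 at 5.48, 5.61 and 5.38 against 5.58, 5.71 and 5.81. Only for Mrpl41 did the groups not overlap. Their log2 fold changes of -0.35, -0.31 and -0.21 did not pass (adjusted p-values of 0.15, 0.218 and 0.261 in limma-trend with Benjamini-Hochberg adjustment). Mrpl57 was at 4.19, 4.59 and 4.66 against 4.03, 4.50 and 3.83, at 0.36 with overlap, and Mrpl44 at 4.61, 4.77 and 4.63 against 4.52, 4.56 and 3.93, at 0.34 without overlap. For both, DMSO_wash_exp3 replicate 3 was the lowest library, and neither passed (adjusted p-values of 0.278 and 0.26 in limma-trend with Benjamini-Hochberg adjustment). Mrpl58 was at 3.63, 3.86 and 4.0 against 4.15, 4.26 and 4.09, a log2 fold change of -0.34 without overlap that did not pass (adjusted p = 0.197 by limma-trend with Benjamini-Hochberg adjustment). The other role genes were closer to DMSO, with Mrpl12 at 0.08, Mrpl3 at 0.11, Mrps12 at 0.15, Mrps18a at 0.01 and Mrps18b at -0.20, all with overlap. Without DMSO_wash_exp3 replicate 3, Mrpl57 was at 0.22, Mrpl44 at 0.13, Mrpl41 at -0.26, Mrpl40 at -0.20, Mrpl42 at -0.16, Mrpl58 at -0.38, Mrpl12 at 0.01, Mrpl3 at 0.02, Mrps12 at -0.07, Mrps18a at -0.12 and Mrps18b at -0.09, and none of them passed.

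These calls turned on single libraries. No ribosomal protein gene passed without CHZ_wash replicate 1, 2 or 3 or without DMSO_wash_exp3 replicate 1 (limma-trend with Benjamini-Hochberg adjustment, each a count of 0, next to 17, 16, 13 and 13 genes at an unadjusted p under 0.05). Of all 11355 genes, 0, 1, 0 and 0 passed in these fits, in the same order. With 1 library left out, the log2 fold change stayed between 0.57 and 0.90 for Mrps14, between 0.46 and 0.64 for Mrps16 and between -0.49 and -0.37 for Mrpl38. Without DMSO_wash_exp3 replicate 2 there were 8, and without replicate 3 of that group 7, while 1298 and 1426 of all genes passed. Over all alternatives, in limma-trend with Benjamini-Hochberg adjustment, the adjusted p ran from 0.00758 to 0.184 for Mrps14, from 0.0148 to 0.179 for Mrps16 and from 0.012 to 0.173 for Mrpl38. The mitochondrial transcript share was 2.14, 1.76 and 1.87% in CHZ_wash and, as given above, highest in DMSO_wash_exp3 replicate 3, and its part in these results was not tested. The pseudogene Mrpl27-ps had a log2 fold change of -0.07 (adjusted p = 0.871 by limma-trend with Benjamini-Hochberg adjustment).

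After ruxolitinib had been washed out, no ribosomal protein gene passed. The count was 0 of 78 in limma-trend with Benjamini-Hochberg adjustment, against 0.0229% of all 13085 genes, and 5 of the 78 had an unadjusted p under 0.05, next to 920 of all genes. All 15 alternatives also gave 0. Log2 fold changes lay between -0.20 and 0.39 with a median of 0.01 (0.00 over all genes), and their quartiles were -0.05 and 0.06. A p that misses the threshold does not show that there was no difference.

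Mrps25 (chr6:92169525-92184033, - strand), a mitochondria-specific small subunit gene, had the highest value. It was at 5.95, 6.18 and 5.88 log2 CPM in Ruxo_wash and 5.53, 5.62 and 5.67 in DMSO_wash. The groups did not overlap, but its log2 fold change of 0.39 (SE 0.09) had an adjusted p of 0.41 in limma-trend with Benjamini-Hochberg adjustment. Mrpl35 (chr6:71812997-71826969, - strand) was at 4.47, 4.17 and 4.19 against 3.98, 4.49 and 3.71, with overlap, at 0.22 (SE 0.21, adjusted p = 0.885 by limma-trend with Benjamini-Hochberg adjustment). At the low end, Mrpl57 was at 5.97, 6.04 and 5.95 against 6.17, 6.33 and 6.07, without overlap, and Mrps14 at 5.39, 5.60 and 5.57 against 5.51, 5.84 and 5.76, with overlap. Their log2 fold changes were -0.20 (SE 0.07) and -0.18 (SE 0.10), with adjusted p-values of 0.668 and 0.772 in limma-trend with Benjamini-Hochberg adjustment. Among the role genes, Mrpl12 was at -0.05, Mrpl3 at 0.00, Mrpl44 at 0.05, Mrpl58 at 0.12, Mrps12 at -0.01, Mrps18a at 0.13, Mrps18b at -0.04 and Mrps18c at -0.01 in log2 fold change, all with overlap. Mrps15 was at 0.06, Mrpl41 at -0.06, Mrpl40 at 0.09 and Mrpl42 at -0.01, also with overlap. Mrps25 overlaps Nr2c2 and is uncertain. The pseudogenes Mrpl23-ps1 and Mrpl48-ps were at 0.15 and -0.68, with adjusted p-values of 0.814 and 0.902 in limma-trend with Benjamini-Hochberg adjustment.

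The effects of the washouts were set against each other as a contrast of effects within each table. Mrps14 was the only ribosomal protein gene of 76 to differ, against 1.9% of all 10078 genes (limma-trend with Benjamini-Hochberg adjustment, 0.923% lower and 0.972% higher), and 14 had an unadjusted p under 0.05, next to 1903 of all genes. Its effect after ruxolitinib minus that after CHZ868 was -0.90 (SE 0.21, interval from -1.36 to -0.45, adjusted p = 0.0466 by limma-trend with Benjamini-Hochberg adjustment). Mrps15 followed with a difference of 0.64 (SE 0.18) and did not pass (adjusted p = 0.075 by limma-trend with Benjamini-Hochberg adjustment). The call of Mrps14 was lost in 14 of 21 alternatives, over which its adjusted p ran from 0.00645 to 0.211 (limma-trend with Benjamini-Hochberg adjustment) and the difference from -1.09 to -0.71. No ribosomal protein gene passed without any single library of CHZ_wash, Ruxo_wash or DMSO_wash or without DMSO_wash_exp3 replicate 1 (a count of 0 in limma-trend with Benjamini-Hochberg adjustment, next to 5 to 92 of all genes), where the adjusted p of Mrps14 was 0.0661, 0.113 and 0.103 without CHZ_wash replicates 1 to 3, 0.105, 0.0889 and 0.0874 without Ruxo_wash replicates 1 to 3, 0.0634, 0.103 and 0.11 without DMSO_wash replicates 1 to 3, and 0.101 without DMSO_wash_exp3 replicate 1. Without DMSO_wash_exp3 replicate 2 the count was 6 and without replicate 3 it was 2, next to 628 and 530 of all genes, where 191 passed with all libraries. The inhibitor and the experiment cannot be told apart in this contrast.

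The effect of CHZ868 while present differed from the effect after its removal for 39 of 75 ribosomal protein genes, 15 lower and 24 higher (20% and 32%), against 47.1% of all 11175 genes, 23.8% lower and 23.2% higher (limma-trend with Benjamini-Hochberg adjustment). Mrps15 had the largest difference at 1.87 (SE 0.17, adjusted p = 3.87e-07 by limma-trend with Benjamini-Hochberg adjustment), with 1.29 at 6 hours and -0.58 after washout. Mrpl41 followed at 1.47 (SE 0.21, adjusted p = 3.20e-05 by limma-trend with Benjamini-Hochberg adjustment). Of the 30 mitochondria-specific genes 16 were higher and 5 lower (median 0.40), and of the 43 with a bacterial counterpart 7 were higher and 10 lower (median -0.21). Over all 75 the median was 0.04, against -0.02 over all genes. Without DMSO_wash_exp3 replicate 3 the medians were 0.46 for mitochondria-specific genes, -0.12 for those with a bacterial counterpart and 0.12 over all 75, with 14 lower and 26 higher. The contrast joins libraries of separate experiments, so that duration, removal and experiment cannot be told apart.

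Comparisons that share no library were also set side by side across genes. Between CHZ868 at 6 hours and the CHZ868 washout, Pearson r was -0.56 and Spearman rho -0.57 over 75 ribosomal protein genes, with r of -0.44 over 11175 genes. Genes such as Mrps15 and Mrpl38, high with CHZ868 present, lay low after washout, and Mrpl57 and Mrps14 showed the reverse values. Leaving out DMSO_wash_exp3 replicate 1, 2 or 3 gave r of -0.61, -0.58 and -0.42. Ruxolitinib at 6 hours and the CHZ868 washout had an r of -0.47 over the 75 genes (-0.34 over 11160 genes, and -0.41 over the 75 without DMSO_wash_exp3 replicate 3). With the ruxolitinib washout, r was 0.08 for CHZ868 at 6 hours and -0.04 for the CHZ868 washout over 76 genes, and 0.07 for ruxolitinib at 6 hours. Genes are not independent replicates, and within a comparison all points share the same 6 libraries.

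**Figure D3:**
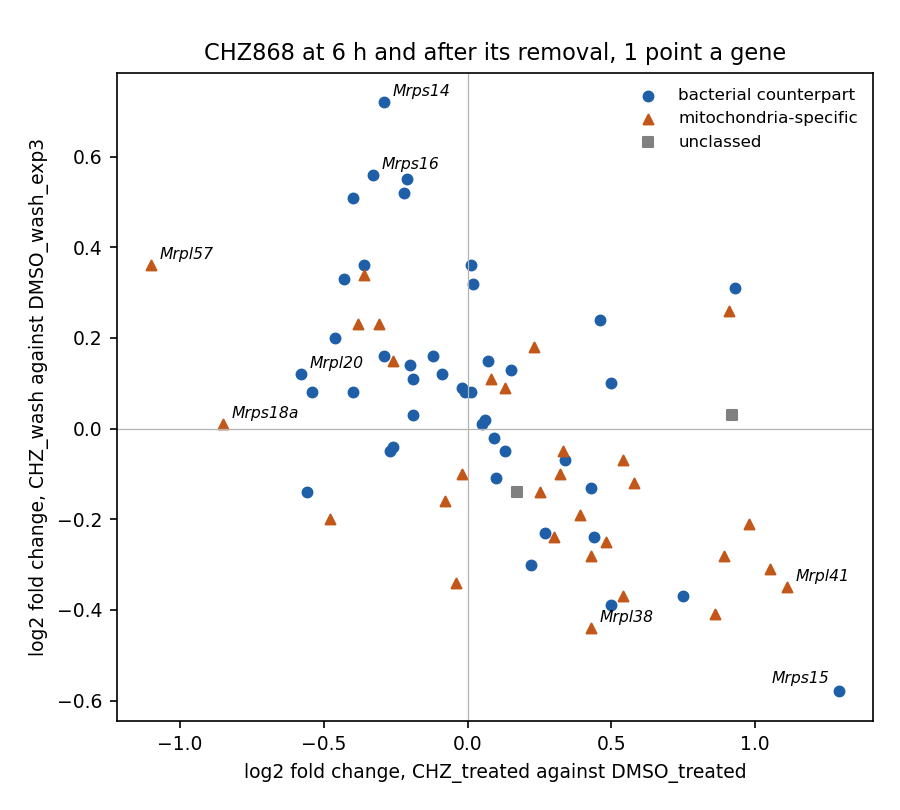
Log2 fold change of 75 mitochondrial ribosomal protein genes (points) with CHZ868 present for 6 hours (x axis) and after its washout (y axis). Mrps15 lies at 1.29 and -0.58, and Pearson r over the genes is -0.56.

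The ribosomal protein genes lie on 17 chromosomes, with at most 11 on the same chromosome (chromosome 11), on GRCm38 with GENCODE M21 annotation, to which the gene positions given above also belong. Of the 78 genes 27 have a near copy elsewhere, at 90% identity or more over at least 250 bases, and their values are uncertain where reads were split between copies. Length and base composition of the transcripts differed little by direction. With CHZ868 the genes that fell, did not pass and rose had median transcript lengths of 1424, 1136 and 1288 bases, and a median GC content of 51.5, 49.8 and 49.9%, where all genes had 52.5, 50 and 47.9%. Spearman rho of the log2 fold change with GC content was -0.08 over 76 ribosomal protein genes and -0.21 over 11166 genes, and with the mean level it was 0.17 and 0.26, across genes that are not independent replicates.

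Several ribosomal protein genes share a promoter region with a gene read in the opposite direction. Of 17 such pairs with starts within 500 bases, looked for after values were seen, 16 had both genes tested with CHZ868, and in 4 both passed. All 4 moved in opposite directions. Mrpl57 had a log2 fold change of -1.10 and Ska3 of 0.75, Mrpl40 rose by 1.05 while Hira fell by 1.22, Mrpl37 rose by 0.43 while Cyb5rl fell by 0.82, and Mrpl49 rose by 0.33 while Fau fell by 0.28. Pearson r over the 16 pairs was -0.64, a description across genes that share libraries and promoter regions. Among all such pairs in the table, both genes passed in 124 of 441, with opposite directions in 59 (47.6%), both lower in 22 and both higher in 43, and r was 0.06.

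Promoter windows from RefSeq (GRCm38.p6), 250 bases before and 50 bases after the start, were matched for 69 of the ribosomal protein genes, in 75 windows. They were searched on both strands for the E-box CACGTG, the ETS and GABP motif CCGGAAG, the YY1 motif AAGATGGCG, the SP and KLF motif GGGCGG and the NRF1 motif. The ETS motif stood in 34.7% of the windows of ribosomal protein genes, against 19.5% of 10738 windows of genes in the CHZ868 table and 8.86% of all 32851 promoter windows. For YY1 the shares were 10.7, 3.36 and 1.4%, for NRF1 17.3, 10.6 and 4.6%, for the E-box 9.33, 10.1 and 7.15% and for SP 52, 62.0 and 35.7%. Split by direction with CHZ868, the NRF1 motif was in 5 of 12 windows of genes that fell, 3 of 24 of genes that rose and 5 of 37 of genes that did not pass. The ETS motif was in 5, 7 and 13 of them, the E-box in 1, 1 and 5, YY1 in 1, 3 and 4 and SP in 3, 15 and 20. Over all genes that fell and rose, the NRF1 motif was in 9.71 and 11.3% of windows. A match is a description of letters in a window and no evidence of binding, and a window without a match says nothing about the factor.

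The promoters of the genes with the lowest (Mrpl57 and Mrps18a) and the highest (Mrps15 and Mrpl41) log2 fold changes with CHZ868 are shown because these genes carry the largest changes in each direction. Each line gives the 250 bases before the start on the strand of the gene, 5′ to 3′, from RefSeq on GRCm38.p6: Mrpl57 chr14:57825989-57826238 (+ strand), Mrps18a chr17:46110754-46111003 (+ strand), Mrps15 chr4:126046678-126046927 (+ strand) and Mrpl41 chr2:24975099-24975348 (- strand). Capitals mark the motif matches on either strand. In Mrpl57 they are the SP motif at -247 and the NRF1 motif at -57, in Mrps18a the ETS motif at -26 and in Mrps15 the SP motif at -61 and -34, counted from the start, while the window of Mrpl41 holds none of them. The GC content of the windows is 66.4, 57.2, 53.6 and 68.8% in that order.
Mrpl57: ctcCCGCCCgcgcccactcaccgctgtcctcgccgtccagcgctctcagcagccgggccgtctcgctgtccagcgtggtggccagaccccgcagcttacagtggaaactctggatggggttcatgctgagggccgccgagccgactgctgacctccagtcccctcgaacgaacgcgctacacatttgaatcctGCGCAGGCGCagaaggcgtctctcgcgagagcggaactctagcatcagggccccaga
Mrps18a: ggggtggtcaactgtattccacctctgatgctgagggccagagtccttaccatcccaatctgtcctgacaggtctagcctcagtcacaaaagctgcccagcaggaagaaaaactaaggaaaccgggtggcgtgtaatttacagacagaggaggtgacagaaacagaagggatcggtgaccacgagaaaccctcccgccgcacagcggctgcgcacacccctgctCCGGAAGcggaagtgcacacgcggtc
Mrps15: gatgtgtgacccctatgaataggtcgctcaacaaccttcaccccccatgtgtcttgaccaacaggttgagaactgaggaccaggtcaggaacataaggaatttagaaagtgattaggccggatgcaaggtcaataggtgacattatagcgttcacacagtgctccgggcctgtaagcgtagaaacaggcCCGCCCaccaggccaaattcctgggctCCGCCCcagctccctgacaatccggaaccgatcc
Mrpl41: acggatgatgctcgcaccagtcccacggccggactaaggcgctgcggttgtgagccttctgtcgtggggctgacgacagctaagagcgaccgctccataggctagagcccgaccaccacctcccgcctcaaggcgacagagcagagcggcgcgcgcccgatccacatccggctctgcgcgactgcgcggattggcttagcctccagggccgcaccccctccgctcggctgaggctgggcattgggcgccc

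Genes that work with the mitochondrial ribosome were counted in the same way with CHZ868 at 6 hours (limma-trend with Benjamini-Hochberg adjustment, threshold of 0.05), to be read against 26.4% of all genes lower and 26.8% higher. Among other proteins of the ribosome 1 of 5 fell (Dap3, by 0.23) and 1 rose (Gadd45gip1, by 0.31), with a median of -0.11. Of 28 assembly and ribosomal RNA modification genes 12 fell and 3 rose (median -0.37), among them the GTPases Mtg2 and Mtg1, which fell by 1.01 and 0.88, the helicase Dhx30, which fell by 0.83, and the methyltransferase Nsun4, which fell by 0.74. Mettl15 rose by 0.76, Grsf1 by 0.54 and Mterf3 by 0.33. Of 17 mitochondrial tRNA synthetases 7 fell and 0 rose (median -0.24), among them Mars2, Tars2 and Vars2, which fell by 1.01, 0.96 and 0.81. Of 19 translation factors 5 fell and 4 rose (median -0.06). The elongation factor genes Tsfm and Tufm fell, with log2 fold changes of -1.10 and -0.33, as did the activator Taco1 at -0.58, while Mtrfr rose by 0.88, the insertase Oxa1l by 0.65 and the elongation factor Gfm1 by 0.53. Near these stood the import and chaperone genes, of which 10 of 25 fell and 4 rose (median -0.27; Lonp1 fell by 0.90 and Tomm40 by 0.89, Pmpcb rose by 0.77).

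Of 15 genes for expression of the mitochondrial genome 3 fell (the polymerase genes Polg and Polrmt, by 0.62 and 0.27, and Tfam, by 0.28) and 2 rose (Tfb2m by 0.42 and Hsd17b10 by 0.25), with a median of -0.17. Of 11 regulators of mitochondrial biogenesis 3 fell (Esrra by 1.19, Pprc1 by 0.80 and Myc by 0.27) and 6 rose (Mxi1 by 0.77, Max by 0.43, Yy1 by 0.42, Gabpb1 by 0.33, Gabpa by 0.30 and Mxd4 by 0.29), with a median of 0.29. The mRNAs that the mitochondrial ribosome translates, of which the table held 11, all rose, by 1.83 to 4.77 with a median of 2.38, and both mitochondrial ribosomal RNAs rose (median 1.62). The part of these transcripts in the values of the ribosomal protein genes was not tested. Of 79 nuclear respiratory chain genes 37 rose and 8 fell (median 0.19), and of 77 cytosolic ribosomal protein genes 27 rose and 17 fell (median 0.13).

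With ruxolitinib at 6 hours, where groups were compared by overlap alone against 20.1% lower and 24.6% higher over all genes, 11 of 28 assembly genes were lower and 3 higher (median -0.25), 14 of 25 import and chaperone genes lower and 3 higher (-0.32), 6 of 17 tRNA synthetases lower and 2 higher (-0.10), 4 of 15 genome expression genes lower and 0 higher (-0.16), 2 of 19 translation factors lower and 2 higher (0.01) and 2 of 5 other ribosomal proteins lower and 0 higher (-0.09). For regulators 4 of 11 were lower and 2 higher (-0.04), for cytosolic ribosomal proteins 21 of 77 lower and 4 higher (-0.16), and for respiratory chain genes 7 of 79 lower and 8 higher (-0.02). Of 10 mitochondrial protein transcripts 6 were higher (0.66) and the ribosomal RNAs overlapped (-0.25). Without Ruxo_treated replicate 2 the same number of protein transcripts was higher, with a median of 0.24, and the median of the ribosomal RNAs was -0.57. Of the 2 ribosomal RNAs 1 was then lower without overlap. The other medians without that library were -0.17 for assembly, -0.29 for import, -0.01 for tRNA synthetases, -0.24 for genome expression, -0.02 for translation factors, 0.05 for other ribosomal proteins, -0.06 for regulators, -0.03 for cytosolic ribosomal proteins and 0.05 for respiratory chain genes. By overlap, 7 of the 79 respiratory chain genes were then lower and 19 higher, and 21 of the 77 cytosolic ribosomal protein genes lower and 9 higher, next to 2983 lower and 3671 higher of all genes. After the CHZ868 washout, no gene passed among the other ribosomal proteins, translation factors, assembly genes, tRNA synthetases, genome expression, import and regulator lists (limma-trend with Benjamini-Hochberg adjustment), where 1, 7, 4, 4, 6, 4 and 2 genes, out of 5, 19, 28, 17, 15, 25 and 11, had an unadjusted p under 0.05, compared with 24.4% of all genes. The respiratory chain list had 0 of 79 with 28 at an unadjusted p under 0.05 (median 0.15) in the same limma-trend fit. Of 77 cytosolic ribosomal protein genes 3 fell and 5 rose (median 0.19). Of the mitochondrial transcripts, all 11 protein transcripts had a log2 fold change below 0 (median -0.87) and 10 had an unadjusted p under 0.05. After adjustment 2 of them fell (mt-Nd1 by 1.08 and mt-Co2 by 0.85, adjusted p-values of 0.0427 and 0.0499 in limma-trend with Benjamini-Hochberg adjustment), as did both ribosomal RNAs (median -1.09). Without DMSO_wash_exp3 replicate 3, where 1426 of all genes passed, 6 of the 11 fell (median of the 11 -0.58, mt-Nd1 by 0.72 and mt-Co2 by 0.58), the median of the ribosomal RNAs was -0.93, and 1 translation factor, 1 assembly, 2 tRNA synthetase, 1 genome expression, 1 import and 1 regulator gene passed. Of the respiratory chain genes 2 then fell and 7 rose (median 0.02), and of the cytosolic ribosomal protein genes 7 fell and 9 rose (median 0.04). After the ruxolitinib washout no gene of any list passed in limma-trend with Benjamini-Hochberg adjustment, with 18 of 78 cytosolic ribosomal protein genes, 8 of 80 respiratory chain genes, 3 of 13 mitochondrial protein transcripts, 3 of 28 assembly genes, 2 of 17 tRNA synthetases, 1 of 15 genome expression genes and 1 of 11 regulators at an unadjusted p under 0.05, compared with 7.03% of all genes.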

How the data were processed

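The authors deposited log2 CPM values per gene in 4 tables, with no counts. The methods of the study name kallisto with GRCm38, TMM scaling and limma with voom, while the submitters' processing notes list STAR 2.7.3a, edgeR 4.0.16 and GRCm39; which of these made the tables was not settled here. The library kit is strand-specific, and whether counting used strand is not given in the sources used here. In 3 tables the deposited log2 CPM values were whole multiples of the worth of 1 read for 100.0% of low values (tolerance 0.1 reads), which gave 7880000 to 10670000 reads on listed genes in each library. In the table of Ruxo_wash and DMSO_wash only 20.3 to 35.2% were whole, so its depth is unknown.

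Each inhibitor group was compared with its own DMSO group by limma-trend on the log2 CPM values of the whole table (two-sided, Benjamini-Hochberg adjustment across every gene tested, threshold of 0.05), and effects of separate tables by contrasts in a joint fit of 12 libraries. Ruxo_treated was compared after centring, without a test. Tools were R 4.3.3, limma 3.58.1, Python 3.11.15, pandas 2.3.3, numpy 2.4.6, matplotlib 3.10.9 and BLAST 2.17.0 (near copies). No filter on low values was added: of the 78 genes, 76, 76, 76 and 78 stood in the tables of CHZ_treated, Ruxo_treated, CHZ_wash and Ruxo_wash, without Mrpl53 and Mrps6 in those of CHZ_treated and Ruxo_treated and without Mrpl53 and Mrps18c in that of CHZ_wash. The fits were tested on simulated data, where the contrasts between tables made somewhat more false calls than the nominal level. Alternatives were fits with no trend or robust empirical Bayes, median centring or none, quantile normalization, log2(CPM + 5), only genes with a mean log2 CPM of at least 3, limma-voom on recovered reads, a GC and length correction, the replicate number as a block, and each library left out.

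Genes named with values in every library were 8 fixed for their roles (Mrps12, Mrpl12, Mrpl3, Mrpl44, Mrpl58, Mrps18a, Mrps18b and Mrps18c), the 6 lowest and 4 highest past the threshold without overlap with CHZ868, the 4 lowest and 3 highest without overlap with ruxolitinib, the 2 lowest and 2 highest in each washout (those past the threshold first), the 2 with the smallest p in each contrast of effects, and the highest and lowest per length. Other genes are named where their class or list is described. The ribosomal protein genes and the lists were chosen with earlier results of these data known.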

Additional observations from a re-analysis of the deposited data

Results flagged for a closer look

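In contrasts of effects between experiments, some mitochondrial ribosomal protein genes differed by the test of the difference itself (limma-trend with Benjamini-Hochberg adjustment). On simulated data these contrasts made somewhat more false calls than the nominal level, so calls close to the threshold are less certain than it implies. Between the ruxolitinib and the CHZ868 washouts, 1 gene of 76 passed, Mrps14, with a difference of -0.90, against 1.9% of all genes. That call was lost in 14 of 21 alternatives, over which its adjusted p ran from 0.00645 to 0.211 in limma-trend with Benjamini-Hochberg adjustment and the difference from -1.09 to -0.71. Between CHZ868 present for 6 hours and its washout, 39 of 75 genes (52%) passed, a share near the 47.1% of all genes. The smallest p-values were those of Mrps15 at a difference of 1.87 and Mrpl41 at 1.47.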

How the results depend on the processing

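With CHZ868 at 6 hours the count of 38 genes ran from 32 to 39 when 1 library was left out and from 37 to 40 under the other alternatives, and the median from 0.01 to 0.12. With 1 library left out, 5081 to 6426 of all 11670 genes passed, against 6214 with all libraries. The contrast of CHZ868 present and washed out (39) ran from 34 to 41 and from 37 to 41, and the count after the ruxolitinib washout was 0 throughout. With ruxolitinib at 6 hours the count without overlap (24) ran from 28 to 37 with 1 library left out and from 19 to 24 otherwise. Over all 11624 genes it ran from 5871 to 6654 with 1 library left out, against 5190 with all of them. After the CHZ868 washout the count of 3 became 0 with no trend, 0 with the GC and length correction and 5 with quantile normalization (0, 20 and 568 of all genes, against 457), and ran from 0 to 8 with 1 library left out (0 to 1426 of all genes). For the difference between washouts the count of 1 became 0 with no trend and 0 with the GC and length correction (14 and 15 of all genes, against 191), and ran from 0 to 6 with 1 library left out (5 to 628 of all genes). The cause was not tested. Voom weights on recovered reads called 38 of these genes and 6256 of all genes with CHZ868 at 6 hours, and 3 and 465 after its washout; they were not run for the ruxolitinib washout, whose table gave no whole reads.

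The replicate numbers did not pair the libraries: same-numbered libraries of the compared groups deviated with correlations of -0.03, 0.05 and -0.01 (CHZ868 at 6 hours), -0.06, 0.09 and -0.07 (CHZ868 washout) and -0.04, -0.05 and -0.01 (ruxolitinib washout). With the replicate block the counts were 38 with CHZ868 at 6 hours, 6 after the CHZ868 washout, 0 after the ruxolitinib washout, 0 for the difference between washouts and 37 for CHZ868 present against washed out. The replicate block with the GC and length correction gave 40, 3, 0, 0 and 41 in the same order.

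Limits are 3 libraries a group, read depths of 7880000 to 10670000 where they are known, and tables normalized separately. Genes with near copies or antisense partners are uncertain.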
